A study of Mus musculus with 2 samples.

Results

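The genes described here are 8 homeobox genes of the eye field and optic cup, *Pax6*, *Rax*, *Six3*, *Six6*, *Lhx2*, *Vsx1*, *Meis1* and *Meis2*, chosen by their symbols from the 28692 genes of the count matrices. They were followed from retinal progenitor cells (RPCs) into the neurons of the embryonic mouse retina, to see which transcripts stayed on after a cell took a fate and which were low in cones. Retinas came from heterozygous LHX4::GFP mice of the strain Tg(Lhx4::EGFP)KN199Gsat/Mmucd at E14.5. The cells of 2 litters were pooled during dissociation, sorted into GFP+ and GFP- cells, and made into 1 droplet library per gate with the 10X Chromium 3' v2 kit. Cells of both gates carried the same bacterial artificial chromosome, in which *Lhx4* regulatory sequence drives GFP, joined to a piece of the LHX4 coding sequence, so both gates came from the same transgenic animals and no wild-type retina was part of the comparison. With 1 library per gate there were no replicates, no test between conditions could be made, and gate and library cannot be told apart.

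The eye field is the part of the anterior neural plate from which both eyes form, and it is marked by a set of transcription factors that work together. *Rax*, *Pax6*, *Six3*, *Six6* and *Lhx2* take part in forming the optic vesicle and remain on in dividing progenitors of the neural retina, where they keep cells proliferating and multipotent. As progenitors leave the cell cycle, single members of the set are kept in some neuron classes and shut off in others, and *Vsx1* is known from bipolar interneurons, most of which are born after this stage. *Meis1* and *Meis2* code for TALE-class homeodomain proteins that bind DNA together with PBX and other homeodomain partners.

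After the cell filters, 3689 GFP+ cells (15503658 UMIs, median 3894 per cell) and 3389 GFP- cells (30094636 UMIs, median 8848 per cell) were kept, and 20 barcodes occurred in both libraries. A UMI counts 1 captured RNA molecule, and whether a cell held fewer molecules or was captured less well was not tested. Cells were grouped by summed UMIs of marker genes, none of them among the 8 genes. The GFP- library held 1635 progenitor-like cells (*Sfrp2*, *Fgf15*, *Hes1*, *Hes5*) and 741 neurogenic-like cells (*Neurog2*, *Atoh7*, *Olig2*). It held 486 RGC-like cells (retinal ganglion cells, by *Pou4f2* and others) and 411 AC/HC-like cells (amacrine and horizontal cells, by *Tfap2b*, *Ptf1a* and others). It also held 65 cone-like cells (*Gngt2*, *Gnb3*, *Pdc*, *Gnat2*, *Thrb*) and 23 photoreceptor-precursor-like cells (*Otx2*, *Crx*, *Prdm1*, with fewer than 3 summed UMIs of the cone genes). The GFP+ library was 95.4% cone-like (3521 cells, 95% exact binomial interval 94.7 to 96.1%). Depth differed between cell groups within each library. Median UMIs per cell were 4918 in cone-like and 9392 in progenitor-like cells of the GFP- library. In the GFP+ library they were 3876 in cone-like cells and 8105 in its 17 progenitor-like cells. *Crx*, a photoreceptor gene that the cone rule did not use, was detected in 92.1% of GFP+ cone-like cells and in 0.184% of GFP- progenitor-like cells after each cell was thinned to 3200 UMIs, the second share being partly set by the rules, since *Crx* is among the genes that define the precursor-like cells. Levels are given as counts per 1000000 UMIs of the cell group (CPM) with 95% exact Poisson intervals, which cover counting error only.

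All 8 symbols matched 1 gene each. On GRCm38, *Pax6* (ENSMUSG00000027168) lies on chromosome 2 from 105668900 to 105697364, *Lhx2* on chromosome 2 from 38339281 to 38369733, *Meis2* on chromosome 2 from 115863064 to 116065839 and *Vsx1* on chromosome 2 from 150680702 to 150689360. *Meis1* lies on chromosome 11 from 18879817 to 19018985, *Six6* on chromosome 12 from 72939892 to 72944899 and *Six3* on chromosome 17 from 85613608 to 85629302. Promoter windows from RefSeq (GRCm38.p6, 250 bases before to 50 bases after a start site) were found for 7 of the 8 genes, in 9 windows. The letters TGACAG, the core bound by MEIS proteins, were searched on both strands, a choice made with the *Meis2* values known. They occurred in 3 windows of the 9, 1 each of *Pax6*, *Six3* and *Six6*, against 19.2% of 32851 promoter windows of all genes. The letters TAATCC, read by OTX2 and CRX, stood in none of the 9 windows and in 7.06% of all, and TAATTA stood in none of the 9 and in 5.29% of all. The 3 windows with the match are shown 5′ to 3′ on the gene's strand with the match in capitals (CTGTCA is the same motif on the other strand). They are examples of promoter windows, 1 of a gene low in cones and 2 of genes within 2-fold in CPM, though not under every scaling. A tie between the windows and the levels was not tested. The *Pax6* and *Six3* windows lie inside their genes, at downstream starts. A match is a string of letters and not a measured binding site.
Pax6, chr2:105682213-105682512, plus strand: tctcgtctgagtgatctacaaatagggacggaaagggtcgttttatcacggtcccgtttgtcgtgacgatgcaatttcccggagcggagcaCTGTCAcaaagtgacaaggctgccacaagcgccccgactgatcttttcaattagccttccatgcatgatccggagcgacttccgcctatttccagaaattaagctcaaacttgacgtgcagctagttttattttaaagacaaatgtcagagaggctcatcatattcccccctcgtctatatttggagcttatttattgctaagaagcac
Six3, chr17:85620584-85620883, plus strand: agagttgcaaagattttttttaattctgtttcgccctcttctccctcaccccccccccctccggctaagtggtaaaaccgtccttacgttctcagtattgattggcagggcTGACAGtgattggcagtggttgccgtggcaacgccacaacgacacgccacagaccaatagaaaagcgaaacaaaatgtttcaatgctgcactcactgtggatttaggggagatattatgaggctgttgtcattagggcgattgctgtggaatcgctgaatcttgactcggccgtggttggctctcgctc
Six6, chr12:72939632-72939931, plus strand: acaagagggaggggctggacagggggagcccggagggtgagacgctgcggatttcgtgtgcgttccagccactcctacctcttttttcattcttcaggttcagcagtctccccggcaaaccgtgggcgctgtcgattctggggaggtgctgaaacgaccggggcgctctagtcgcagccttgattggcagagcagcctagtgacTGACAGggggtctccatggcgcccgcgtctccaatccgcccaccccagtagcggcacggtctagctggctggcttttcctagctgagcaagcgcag

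Between the gates, *Pax6* and *Lhx2* were lower in GFP+ cells, *Meis2* was far higher, and *Rax*, *Six3*, *Six6* and *Meis1* stayed within 2-fold. *Pax6* was at 177 CPM (171 to 184) in the GFP+ library, against 743 CPM (733 to 753) in the other, a 4.19-fold lower level (95% exact interval of the ratio 4.03 to 4.36). For *Lhx2* the gates held 96.5 CPM (GFP+) and 211 CPM (GFP-), which was lower in GFP+ cells (2.19-fold lower, 2.07 to 2.32). *Meis2* had 883 CPM (868 to 898) against 33.7 CPM (31.7 to 35.9), a ratio of 26.2 (24.6 to 27.9). *Vsx1* was all but silent, with 0 UMIs in the GFP+ and 13 UMIs in the GFP- library, and was counted as lower only because 0 set to a floor of 3 counts gives 2.23-fold. Its exact interval allows a ratio as small as 1.57-fold lower. Of the 8 genes, 3 were at least 2-fold lower in GFP+ cells, where 16.5% of 15236 genes with at least 10 UMIs were, and 1 was at least 2-fold higher, where 23% of genes were. With mean UMIs per cell, *Six3*, *Six6* and *Meis1* also passed 2-fold lower (log2 ratios of -1.96, -1.49 and -1.25) and *Rax* turned to -0.42, and with TMM scaling *Six3* passed (-1.16). Without the upper limit on genes per cell only *Pax6* stayed past 2-fold lower, with log2 ratios of -0.92 for *Lhx2* and -0.87 for *Vsx1*. The gates differ in cell composition, so the cell groups were compared next.

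Each of the genes other than *Vsx1* had its own order of levels across the cell groups. The plot of CPM by cell group shows all 8 genes side by side. *Pax6* was highest in AC/HC-like, then RGC-like cells, and lowest in cones; *Rax* ran the other way. *Six3* was highest in RGC-like cells, *Six6* and *Lhx2* in progenitor-like cells, and *Meis2* in cone-like and photoreceptor-precursor-like cells. *Meis1* had the flattest profile of the 7 genes that were detected well, from 81.5 CPM in GFP- cone-like to 137 CPM in AC/HC-like cells.

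**Figure D1:**
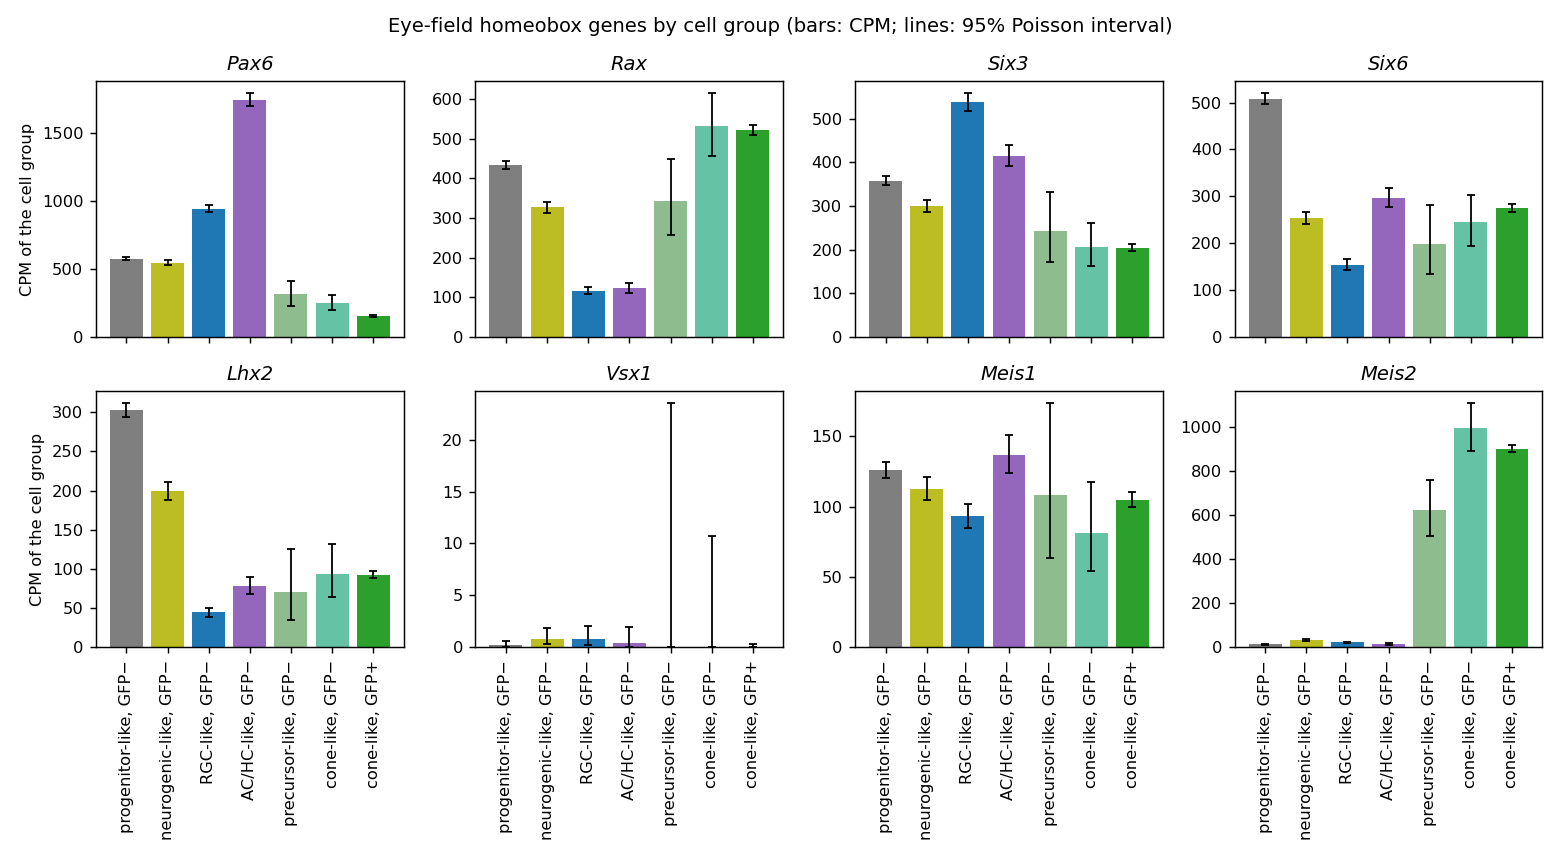
CPM (vertical axis, own scale per panel, starting at 0) of the 8 genes in 7 cell groups (horizontal axis); bars are the summed UMIs of the group scaled to 1000000, lines the 95% exact Poisson interval. *Pax6* stands at 1746 CPM in AC/HC-like and 155.5 CPM in GFP+ cone-like cells, and *Meis2* at 903 CPM in GFP+ cone-like and 12.3 CPM in progenitor-like cells.

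*Pax6*, a paired-domain and homeodomain factor needed for progenitor multipotency and known to persist in amacrine, horizontal and ganglion cells, was measured at 577 CPM (565 to 589) in progenitor-like cells and 547 CPM (529 to 566) in neurogenic-like cells. It stood at 1746 CPM (1698 to 1795) in AC/HC-like and 945 CPM (918 to 972) in RGC-like cells. In GFP+ cone-like cells it was at 155.5 CPM (149 to 162). Progenitor-like and neurogenic-like cells were neighbours in this order whose intervals just overlapped, and all other neighbours with at least 400 cells were separate. Against progenitor-like cells *Pax6* was 3.02-fold higher in AC/HC-like cells (2.92 to 3.13) and 3.71-fold lower in GFP+ cone-like cells (3.54 to 3.89). The RGC-like ratio of 1.64 (1.58 to 1.70) was under the 2-fold limit. Set against the other neurons, GFP+ cone-like cells held 11.2-fold less *Pax6* in CPM than AC/HC-like cells (10.7 to 11.8; 11.2% of genes at least 2-fold lower) and 6.08-fold less than RGC-like cells (5.78 to 6.39; 11.8% of genes lower).

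*Rax*, the paired-type homeobox gene without which no eye forms (chromosome 18 from 65928277 to 65939787), had nearly the reverse pattern. It was found at 434 CPM (423 to 444) in progenitor-like, 327.5 CPM (314 to 342) in neurogenic-like and 523 CPM (511 to 534) in GFP+ cone-like cells. In RGC-like cells it had 117 CPM (107 to 126) and in AC/HC-like cells 123 CPM (111 to 137), 2 values with overlapping intervals. These were 3.72-fold (3.42 to 4.05) and 3.51-fold (3.16 to 3.92) below progenitor-like cells. In cones *Rax* stayed on: the ratio to progenitor-like cells was 1.21 (1.17 to 1.25) in CPM, but it turned to lower under TMM scaling (log2 ratio of -0.07) and when UMIs were counted per cell, with 2.16 UMIs in a mean cone-like and 4.03 in a mean progenitor-like cell. The 65 cone-like cells of the GFP- library had 532 CPM (458 to 615), an interval that includes the GFP+ value. *Rax* was 4.48-fold higher in GFP+ cone-like than in RGC-like cells (4.12 to 4.88; 26.8% of genes at least 2-fold higher) and 4.23-fold higher than in AC/HC-like cells (3.81 to 4.72; 22.2% of genes higher).

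*Six3* and *Six6*, SIX-class homeobox genes whose proteins act with Groucho-type corepressors in the optic vesicle, differed from each other among the neurons. *Six3* had 358 CPM (348 to 368) in progenitor-like, 537 CPM (517 to 558) in RGC-like, 415 CPM (392 to 439) in AC/HC-like and 204 CPM (197 to 212) in GFP+ cone-like cells. *Six6* had 508 CPM (497 to 520) in progenitor-like, 154 CPM (143 to 165) in RGC-like, 297 CPM (277 to 318) in AC/HC-like and 275 CPM (267 to 284) in GFP+ cone-like cells. In RGC-like cells *Six6* was therefore 3.30-fold lower (3.07 to 3.56) while *Six3* had a ratio of 1.501 (1.43 to 1.57). In cone-like cells both were within 2-fold, with ratios of 0.571 (0.546 to 0.597) for *Six3* and 0.541 (0.521 to 0.562) for *Six6*, and with edgeR's TMM scaling, which set the median gene near no change, both passed the 2-fold limit. RGC-like against AC/HC-like cells gave 0 of 7 genes past 2-fold in CPM (8.28% of genes were lower and 9.01% higher), the lowest ratio being 0.518 (0.469 to 0.572) for *Six6*.

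*Lhx2*, the LIM-homeodomain gene required for the optic vesicle to become an optic cup, was highest in progenitor-like cells at 302.5 CPM (294 to 311). It was lower in neurogenic-like cells, at 199 CPM (188 to 211), and lower again in every neuron group. The levels were 92.6 CPM (87.7 to 97.7) in GFP+ cone-like, 78.1 CPM (68.2 to 89.0) in AC/HC-like and 44.3 CPM (38.6 to 50.5) in RGC-like cells. The cone-like and AC/HC-like intervals overlapped, and the RGC-like interval lay below both. Against progenitor-like cells these were 3.27-fold (3.07 to 3.47), 3.87-fold (3.39 to 4.45) and 6.83-fold (5.97 to 7.86) lower.

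*Meis2* was the gene with the largest ratio of the 8. In the GFP- library it was at 12.3 CPM (10.6 to 14.2) in progenitor-like, 15.7 CPM (11.4 to 21.0) in AC/HC-like, 21.0 CPM (17.2 to 25.5) in RGC-like and 34.0 CPM (29.6 to 38.9) in neurogenic-like cells. It stood at 903 CPM (887 to 918) in GFP+ cone-like cells, 998 CPM (895 to 1109) in GFP- cone-like cells and 624.5 CPM (507 to 761) in the 23 GFP- photoreceptor-precursor-like cells. The 26 photoreceptor-precursor-like cells of the GFP+ library had 1244 CPM (1050 to 1464), above its cone-like cells. The 26 neurogenic-like cells of that library had 621 CPM (518 to 738). All of their 129 UMIs lay in the 20 cells with at least 3 summed UMIs of *Otx2*, *Crx* and *Prdm1*, at 882 CPM (737 to 1048). The cone to progenitor ratio was 73.3 (63.5 to 85.2) across the libraries and 81.1 (67.7 to 97.4) within the GFP- library. *Meis1*, the other MEIS gene, had 126 CPM (120 to 132) in progenitor-like and 105 CPM (99.8 to 110) in GFP+ cone-like cells, a ratio of 0.833 (0.778 to 0.891), which passed 2-fold lower with mean UMIs per cell (log2 ratio of -1.43).

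Taking each neuron group against progenitor-like cells, 2 of 7 genes were at least 2-fold lower in GFP+ cone-like cells (*Pax6*, *Lhx2*; 16% of 14494 genes were) and 1 was at least 2-fold higher (*Meis2*; 29.4% of genes were). In RGC-like cells 3 of 7 were lower (*Rax*, *Six6*, *Lhx2*; 17.8% of genes) and 0 were higher (15.4% of genes). In AC/HC-like cells 2 were lower (*Rax*, *Lhx2*; 16.7% of genes) and 1 was higher (*Pax6*; 17.7% of genes). *Vsx1* had under 10 UMIs in each of these comparisons and was left out. The median log2 ratio of the genes tested was 0.41 in cone-like cells, that is, the median gene was higher in cones in CPM, and relative to it *Rax* was at -0.14, *Meis1* at -0.67, *Six3* at -1.22, *Six6* at -1.29, *Lhx2* at -2.11, *Pax6* at -2.30 and *Meis2* at 5.79 on the log2 scale. In RGC-like and AC/HC-like cells that median was -0.04 and 0.11. *Lhx2* was the member that was at least 2-fold lower in all 3 neuron groups.

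**Figure D2:**
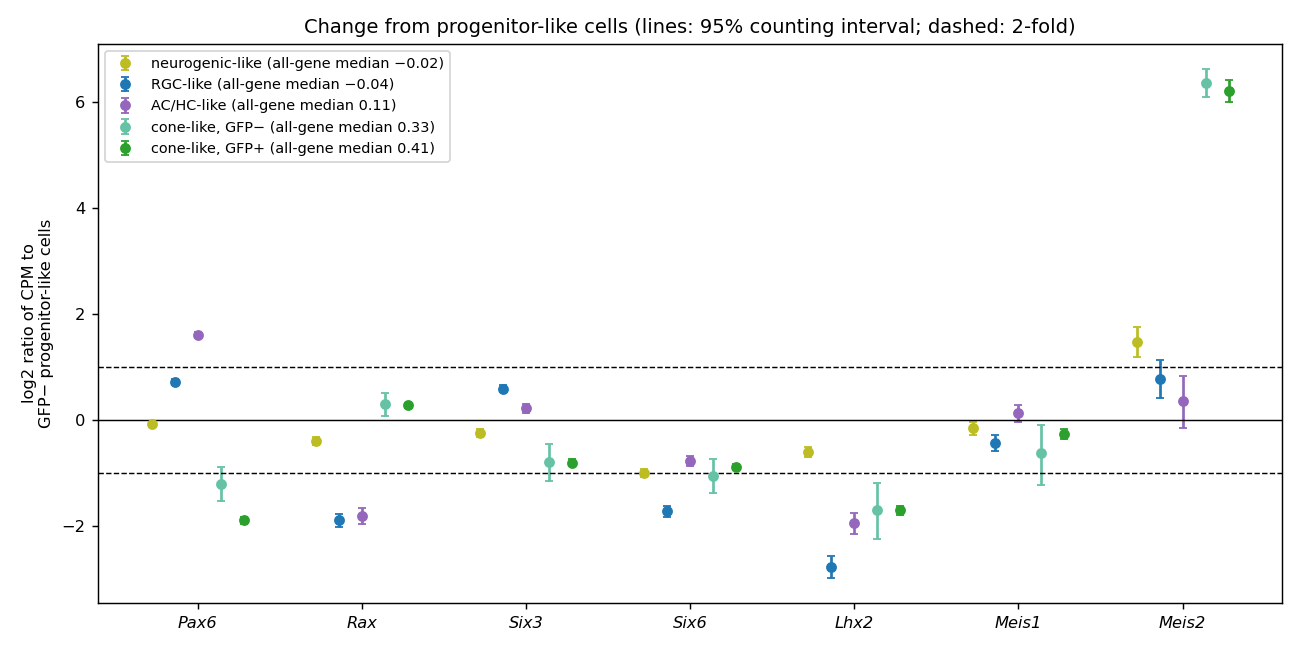
Log2 ratio of CPM to GFP- progenitor-like cells (vertical axis) for 7 genes (horizontal axis) in 5 cell groups; points are ratios, lines 95% exact intervals, dashed lines 2-fold, and the legend gives the median log2 ratio of all genes tested. *Rax* lies near 0 in both sets of cone-like cells and below -1 in RGC-like and AC/HC-like cells, while *Pax6* lies below -1 in cones and above 0 in the other neurons.

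Since the main cone comparison crosses libraries, it was repeated within each. In the GFP- library, cone-like against progenitor-like cells gave 3 genes at least 2-fold lower (10.8% of genes), *Pax6* by 2.31-fold (1.87 to 2.89), *Lhx2* by 3.25-fold (2.30 to 4.76) and *Six6* by 2.08-fold (1.68 to 2.61), with *Rax* at a ratio of 1.23 (1.05 to 1.42). *Meis2* was the 1 gene of the 8 past 2-fold higher there (31.9% of genes). In the GFP+ library, whose 17 progenitor-like cells make a small group, *Pax6* was 3.58-fold lower (2.81 to 4.50), *Lhx2* 5.61-fold lower (4.36 to 7.13), and *Meis2* had 13136 UMIs in cones and 1 in the progenitor-like cells (35.7% of genes were at least 2-fold lower and 16% higher). Cone-like cells of the 2 gates differed by less than 2-fold for each of the 7 genes (19.4% of genes were at least 2-fold lower in the GFP+ cells and 10.5% higher). The largest difference was in *Pax6*, whose ratio of GFP+ to GFP- cone-like cells was 0.621 (0.501 to 0.780). Progenitor genes were also detected less in the GFP+ cone-like cells: *Fgf15* had a UMI in 27.1% of thinned GFP- and 0.876% of thinned GFP+ cone-like cells, *Sfrp2* in 16.9 and 6.87% and *Ccnd1* in 10.2 and 3.07%, and their part in the *Pax6* difference was not tested.

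*Sfrp2*, *Fgf15*, *Hes1*, *Hes5* and *Ccnd1*, genes of progenitors that neurons should mostly lack, were read beside the 8 genes as a reference for residual progenitor transcripts. The first 4 also served to define the progenitor-like group. In GFP+ cone-like cells these 5 were at 0.295 to 1.55% of their progenitor-like level, while *Pax6* was at 26.9% and *Lhx2* at 30.6%. In AC/HC-like cells *Sfrp2* and *Ccnd1* were at 3.76 and 3.57%, *Fgf15* and *Hes1* at 9.90 and 10.5% and *Hes5* at 112%, with *Rax* at 28.5% and *Lhx2* at 25.8%. In RGC-like cells *Sfrp2*, *Fgf15*, *Hes1* and *Ccnd1* were at 11.1 to 13.2% (*Hes5* at 36.0%), and *Lhx2*, at 14.6%, was close to them, while *Rax* (26.9%) and *Six6* (30.3%) were above.

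The RGC-like cells, of which the upper limit on genes had left 486 out of 1052, were then split by *Atoh7*, the bHLH gene of newborn ganglion cells. The 269 cells with an *Atoh7* UMI had 18.9 CPM of *Lhx2* (14.0 to 24.8) and the 217 cells without had 74.3 CPM (63.6 to 86.4), a ratio of 3.94 (2.87 to 5.50), where 9.57% of genes were at least 2-fold higher; the other 6 genes tested were within 2-fold. However, the cells without *Atoh7* held *Sfrp2*, *Fgf15*, *Hes1*, *Hes5* and *Ccnd1* at a nearly even 21.5 to 24.3% of the progenitor-like level, and *Lhx2* stood at 24.6%, next to them. In the cells with *Atoh7* the reference genes other than *Hes5* were at 2.40 to 4.28% (*Hes5* at 47.3%) and *Lhx2* at 6.23%. There *Rax* (3.88-fold), *Six6* (3.71-fold) and *Lhx2* (16.0-fold) were the 3 genes at least 2-fold below progenitor-like cells (18.7% of genes), and 0 of 7 were higher (13.6% of genes). The same 3 genes were lower in the cells without *Atoh7*, by 3.54-, 2.93- and 4.07-fold (16.6% of genes). The part of residual progenitor transcripts in the *Lhx2* value of the cells without *Atoh7* was not tested. With every marker threshold doubled, which left 350 RGC-like cells, the log2 ratio of *Lhx2* went from -2.77 to -5.07, that of *Rax* from -1.89 to -2.67 and that of *Six6* from -1.72 to -2.12. *Pax6* had 973.7 CPM with and 911 CPM without *Atoh7*, and *Six3* 552.5 and 519 CPM.

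**Figure D3:**
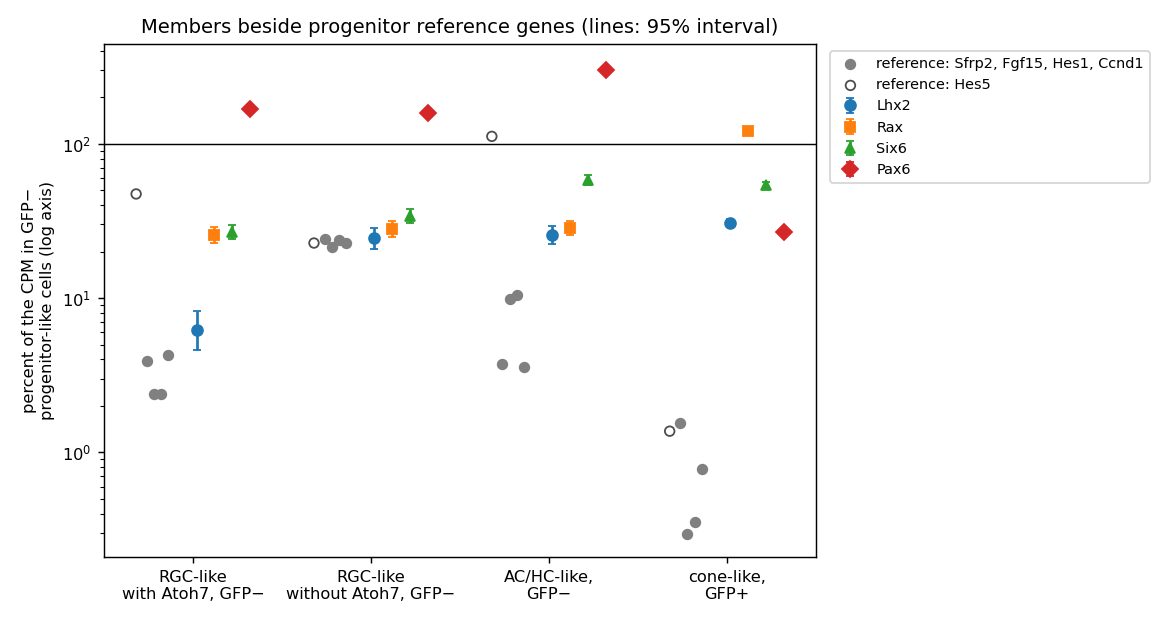
Level as a percent of that in GFP- progenitor-like cells (vertical log axis) in 4 cell groups; grey points are progenitor reference genes (open: *Hes5*), coloured points *Lhx2*, *Rax*, *Six6* and *Pax6* with 95% exact intervals. In RGC-like cells without *Atoh7* (24.6%), the interval of *Lhx2* spans the range of the reference genes (21.5 to 24.3%). In GFP+ cone-like cells *Lhx2* (30.6%) lies above them.

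AC/HC-like cells were split by *Ptf1a*, which is on in newborn amacrine and horizontal cells. The 43 cells without a *Ptf1a* UMI had 39.99 CPM of *Rax* (20.7 to 69.9) against 133 CPM (119 to 148) in the 368 cells with it, a 3.33-fold lower level (1.88 to 6.51). *Lhx2* had 39.99 CPM against 82.5 CPM (2.06-fold lower, 1.16 to 4.06); 7.17% of genes were at least 2-fold lower and 8.76% higher. Each value of 39.99 CPM rests on 12 UMIs. *Pax6* remained high on both sides, at 1599.6 and 1763 CPM. *Six3* (433 and 413 CPM) and *Six6* (347 and 291 CPM) also differed by less than 2-fold between the sides. *Six6* was below its progenitor-like level of 508 CPM on both. Among the markers of other cells, the endothelium list (*Cldn5*, *Pecam1*, *Kdr*) summed to 269 CPM in AC/HC-like and 57.9 CPM in progenitor-like cells, of which *Cldn5* made 260 CPM in the first and *Kdr* 55.3 CPM in the second, while *Pecam1* had at most 2.09 CPM in both. Its part in the AC/HC-like values was not tested. In GFP+ cone-like cells the microglia list summed to 27.2 CPM (26.9 CPM of it *C1qa*, with *Csf1r* at 0) and the rod list to 32.6 CPM (31.6 CPM of it *Nrl*), while the lists of pigment epithelium, ciliary margin, lens, blood and mesenchyme reached at most 14.6 CPM in each of the 6 main groups.

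Within the progenitor and neurogenic cells the levels were read by marker UMIs, and an order in time was not measured. Progenitor-like cells with at least 3 UMIs of mitotic genes (858 cells) and those with fewer (777 cells) differed by less than 2-fold in all 7 genes tested, with ratios from 0.862 for *Meis2* to 1.21 for *Six3* (4.01% of genes were at least 2-fold higher and 3.02% lower). From progenitor-like to neurogenic-like cells *Six6* was 2.01-fold lower (1.90 to 2.12; 7.33% of genes at least 2-fold lower), at the limit, and *Meis2* 2.76-fold higher (2.26 to 3.38; 5.45% of genes higher). *Pax6* kept a ratio of 0.948 and *Lhx2* one of 0.659. Neurogenic-like cells with at least 3 summed UMIs of *Otx2*, *Crx* and *Prdm1*, the genes of photoreceptor precursors, were then set against those with none, a split added after the values were seen. The 235 cells with these genes had 320.5 CPM of *Pax6* against 665 CPM in 369 cells without (2.08-fold lower, 1.90 to 2.27; 9.42% of genes lower), 162 against 330.4 CPM of *Six6* (2.04-fold lower) and 116 against 247 CPM of *Lhx2* (2.12-fold lower). *Meis2* had 81.6 CPM against 14.1 CPM (5.77-fold higher, 4.13 to 8.20; 6.38% of genes higher), and *Rax* had 403 against 310 CPM, a ratio of 1.30 (1.18 to 1.43). In CPM, *Pax6*, *Six6*, *Lhx2*, *Rax* and *Meis2* lay on the same side here as in cones, in cells that carried neurogenic genes. *Meis1* (0.877) and *Six3* (1.02) had intervals that included 1. The references differ, being neurogenic-like cells without precursor genes here and progenitor-like cells, with 577 CPM of *Pax6*, for cones. The photoreceptor-precursor-like cells of the GFP- library had 312 CPM of *Pax6* (231 to 413), 344 CPM of *Rax* (258.5 to 449) and 70.1 CPM of *Lhx2* (35.0 to 125). Against progenitor-like cells *Six6* and *Lhx2* were at least 2-fold lower there (2.57- and 4.32-fold; 8.82% of genes) and *Meis2* was higher (50.7-fold; 40.4% of genes).

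Among GFP+ cells, thinned to 3200 UMIs so that depth was equal, the 8 genes were read along the summed UMIs of the 5 cone genes. This is a range of cells and not a set of types. *Pax6* had 526 CPM (461 to 597) in 142 cells with 0 to 2 cone UMIs, 203 CPM (170 to 241) in 206 cells with 3 to 5, 157 CPM (142 to 174) in 771 cells with 6 to 10 and 131 CPM (122 to 140) in 1991 cells with 11 or more. The cells with 0 to 2 cone UMIs also held *Ccnd1* at 405 CPM and *Neurog2* at 74.8 CPM, against at most 16.7 and 1.26 CPM in the other bins, so they include cycling and neurogenic cells. By the marker rules they also include the 12 AC/HC-like and 3 RGC-like cells of the GFP+ library. *Pax6* was at 2147 CPM (1851 to 2476) in those AC/HC-like and 1052 CPM (729 to 1470) in those RGC-like cells. The part of these cells in the *Pax6* value of the first bin was not tested. *Rax* ran from 429 CPM (371 to 494) in the first to 538 CPM (520 to 556) in the last bin. *Meis2* was highest at 3 to 5 cone UMIs, at 1068 CPM (990.5 to 1150), and 826 CPM (804 to 848) in the last bin. *Lhx2* (89.5 to 121 CPM), *Six6* (249 to 293 CPM) and *Meis1* (94.6 to 118 CPM) had overlapping intervals in all 4 bins, and *Vsx1* had 0 UMIs in each.

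**Figure D4:**
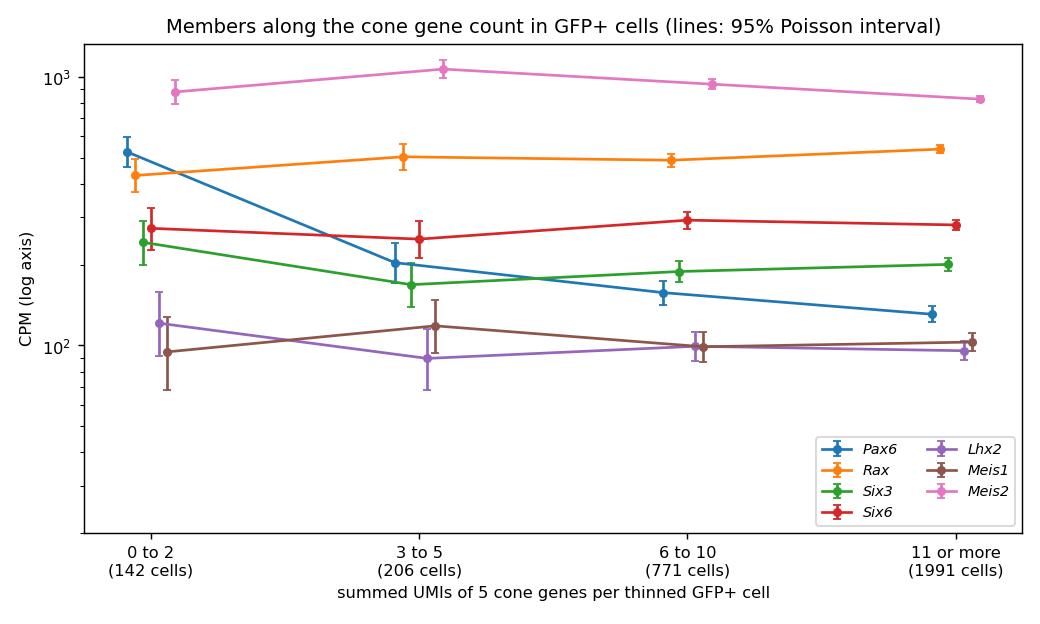
CPM on a log axis of 7 genes in GFP+ cells thinned to 3200 UMIs, in 4 bins of the summed UMIs of 5 cone genes; points are levels, vertical lines 95% exact Poisson intervals. *Pax6* goes from 526 to 131 CPM across the bins and *Rax* from 429 to 538 CPM. The first bin includes cycling, neurogenic, AC/HC-like and RGC-like cells.

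Since *Rax* and *Pax6* ran opposite to each other in the neurons, their transcripts were counted in the same cells at 3200 UMIs. Both were detected in 58.8% of progenitor-like cells (56.4 to 61.2%). *Rax* without *Pax6* was found in 53.8% of GFP+ cone-like cells (52.0 to 55.6%), 47.5% of GFP- cone-like cells, 12.8% of progenitor-like, 2.48% of RGC-like and 1.46% of AC/HC-like cells. The opposite, *Pax6* without *Rax*, was found in 7.34% of GFP+ cone-like, 66.7% of RGC-like (62.3 to 70.9%) and 74.9% of AC/HC-like cells (70.4 to 79.0%). Thinning left out 552 GFP+ cone-like cells and 8 progenitor-like cells. Without thinning, *Rax* without *Pax6* made 51.7% of GFP+ cone-like and 2.14% of progenitor-like cells. Both genes were then detected in 92.2% of progenitor-like and 51.9% of RGC-like cells. *Pax6* without *Rax* made 46.9% of RGC-like, 62.3% of AC/HC-like and 5.60% of GFP+ cone-like cells, so these shares depend on depth. *Pax6* itself had a UMI in 31.3% of thinned GFP+ cone-like cells, where *Ccnd1* and *Sfrp2*, genes that cones should lack, had one in 3.07 and 6.87%. *Rax* and *Meis2* shared a cell in 68.6% of GFP+ cone-like cells (66.9 to 70.2%) and in 3.13% of progenitor-like cells. Taken alone, *Rax* had a UMI in 77.8% and *Meis2* in 88.1% of these cone-like cells. In the progenitor-like cells the single shares were 71.6% for *Rax* and 4.30% for *Meis2*. Shares for pairs of genes depend on such single shares, and an association of 2 genes within cells was not tested.

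**Figure D5:**
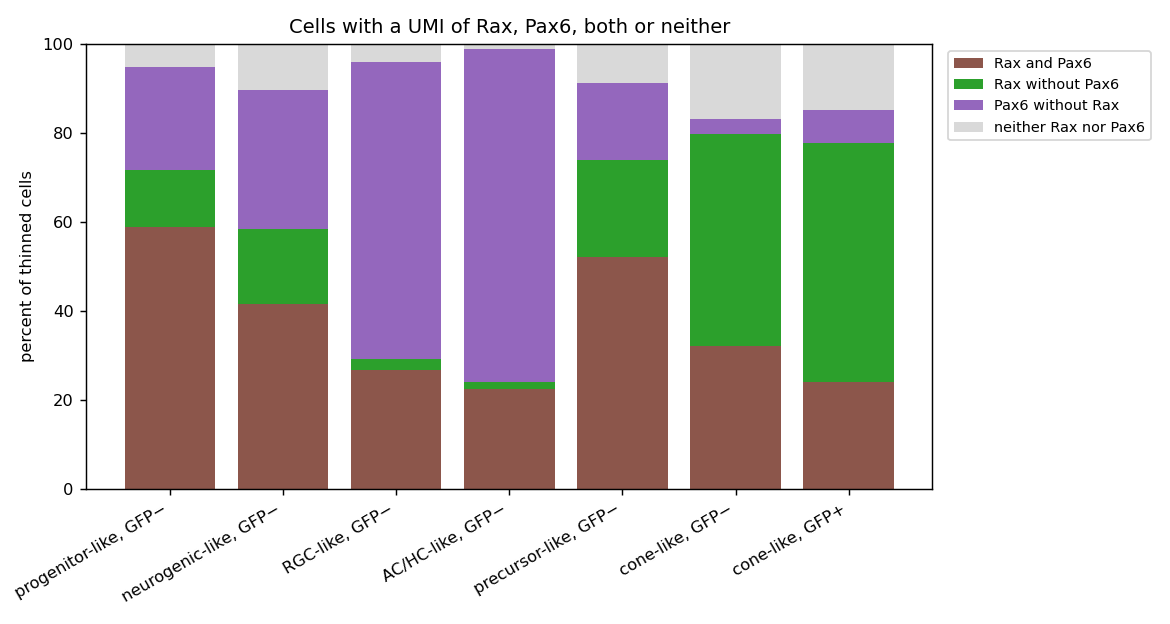
Percent of thinned cells (vertical axis) in 7 cell groups (horizontal axis) with a UMI of both *Rax* and *Pax6*, of 1 of them, or of neither; the stacked parts sum to all cells of a group. *Rax* without *Pax6* makes 53.8% of GFP+ cone-like cells and 1.46% of AC/HC-like cells.

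Partners and relatives of the 8 genes were read from lists. Of 11 other eye-field and optic-cup regulators, 8 were at least 2-fold lower in GFP+ cone-like than in progenitor-like cells (16% of all genes were) and 1 was higher (29.4% of all genes), with a median log2 ratio of -2.77 against 0.41 for all genes tested. *Nr2e1*, an orphan nuclear receptor gene of progenitors, was at 1.82% of its progenitor-like level and *Sox2* at 9.04%, while *Mab21l1* was 2.70-fold higher (2.51 to 2.91). Among 9 TALE-class genes, the group of MEIS and its PBX partners, 3 were lower and 3 higher, the latter close to the share of all genes that were higher (29.4%; 16% were lower). *Pbx4* was at 27.4% of the progenitor-like level, and *Meis3* was 3.17-fold (2.85 to 3.53) and *Pbx3* 2.24-fold higher (1.97 to 2.55). Of 7 EYA, DACH and Groucho genes tested, whose products work with SIX-class proteins, *Tle1*, a Groucho corepressor, was 6.52-fold higher in cones (6.10 to 6.97), *Dach1* 3.99-fold and *Eya1* 3.60-fold higher, while *Eya2* (19.4%) and *Aes* (39.4%) were lower. Of 3 other SIX-class genes tested in cones, 2 were lower, among them *Six5* (30.8%), and 1 was higher (*Six4*, 2.39-fold), with a median log2 ratio of -1.04. In RGC-like cells 5 of the 7 EYA, DACH and Groucho genes were higher and 0 lower (15.4% of all genes were higher and 17.8% lower). The one with the largest ratio was *Eya2*, 18.8-fold higher (14.6 to 24.5). Of the 9 TALE-class genes, 2 were higher and 2 lower in RGC-like cells, and *Meis3* was 6.06-fold higher (5.41 to 6.80). Of the 11 regulators, 5 were lower and 1 higher in RGC-like cells, and 5 were lower and 2 higher in AC/HC-like cells (16.7% of all genes were lower there and 17.7% higher). *Nr2e1* was at 12.8% and *Sox2* at 13.6% of the progenitor-like level in RGC-like cells, and at 5.40% and 14.0% in AC/HC-like cells. In AC/HC-like cells *Hmx1* was 5.35-fold (4.99 to 5.75), *Dach2* 8.98-fold (5.85 to 14.0) and *Meis3* 3.82-fold higher (3.30 to 4.41). Of the 7 EYA, DACH and Groucho genes tested there, 3 were higher and 1 was lower. Of the 9 TALE-class genes, 2 were higher and 1 was lower, near the shares of all genes. Of the noncoding genes beside *Pax6*, *Pax6os1* overlaps its 5′ end on the other strand and was lower in all 3 neuron groups, at 11.8% in cone-like, 25.5% in RGC-like and 33.2% in AC/HC-like cells, whereas *Paupar* had ratios of 0.543, 2.35 and 2.97 there.

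For each gene, the genes most like it over the log2 of CPM + 1 were listed by Pearson's r, among 7923 genes that reached 20 CPM. The 6 groups of at least 50 cells were used, with mixed cells left out. With 6 points that share libraries and depth the r values describe these profiles only. *Pax6* was closest to *Syt5*, *Armc10* and *Zfp532* (r from 0.979 to 0.981), and *Rax* to *Eef2kmt*, *Wdr60* and *Oat* (0.994 to 0.995). *Lhx2* was closest to *Rad50*, *Plekhg2* and *Msh6* (0.985 to 0.997), and *Meis2* to *Usp13*, *Tdrkh* and *Otop3* (0.997 to 0.999). *Six3* was closest to *Gm1673*, *Fam195b* and *Mab21l2* (0.986 to 0.988), and *Six6* to *Fermt2*, *Arntl* and *Qars* (0.934 to 0.982). *Meis1* was closest to *Lta4h*, *2210016F16Rik* and *Nes* (0.960 to 0.985). Pearson's r leaves out the size of a change. *Nes* ran from 2.91 to 51.9 CPM over these groups and *Meis1* from 81.5 to 137 CPM.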

How the data were processed

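Single-cell libraries of the GFP+ and GFP- gates were analysed from the deposited UMI counts, which the authors made with Cell Ranger 2.1.1 on mm10 (GRCm38); the counts are raw. Each library had 1 sample, so levels, ratios and shares carry exact Poisson, conditional binomial and Clopper-Pearson 95% intervals that cover counting error only. Cells were kept with 250 or more but fewer than 3500 genes, and with less than 0.25 of UMIs mitochondrial (the study gives this limit as a percent and it was read here as a fraction). The gene limit removed 39 GFP+ and 1055 GFP- barcodes. It left 486 of 1052 RGC-like, 1635 of 1979 progenitor-like and 741 of 853 neurogenic-like cells. Of the AC/HC-like cells it left 411 of 432, and of the GFP+ cone-like cells 3521 of 3553. The RGC-like values in the main run are thus those of the cells with fewer genes. A cell was cone-like at 3 or more cone UMIs, AC/HC-like or RGC-like at 2 or more, and mixed when 2 of these applied; otherwise it was photoreceptor-precursor-like at 3 or more precursor UMIs with at most 1 neurogenic UMI, neurogenic-like at 2 or more, or progenitor-like at 3 or more. A gene was called higher or lower at a 2-fold ratio of CPM with at least 10 UMIs in both groups together, with 0 set to 3 counts. Doublets were called with Scrublet in scanpy 1.11.5, which marked 3 GFP+ and 55 GFP- barcodes and, for GFP+, so few that it cannot be taken to have worked; doublets stayed in the main values. TMM factors came from edgeR 4.0.16 in R 4.3.3, and intervals from scipy 1.17.1. For shares of cells, each cell was thinned to 3200 UMIs. Alternatives were other cell filters, scalings, fold limits, marker thresholds and doublet removal. The ratio step was tested on simulated data. The 8 genes, the marker lists and the partner lists were chosen with earlier results of these data known. Named genes are the 8, list members past 2-fold, the 5 reference genes of the progenitor check, the overlapping noncoding genes and the 3 most similar genes of each. Protein sequences were not used here. Some members of the partner lists are not reported here.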

Additional observations from a re-analysis of the deposited data

How the results depend on the processing

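The 5 counts of genes at least 2-fold lower were recomputed under other cell filters, scalings, fold limits, doublet removal and marker rules. For GFP+ against GFP- cells the count of 3 became 1 without the upper limit on genes, 1 with no filter on cells, 1 at a 3-fold limit and 6 with mean UMIs per cell. For cone-like against progenitor-like cells the count of 2 became 4 with TMM factors, 4 at a 1.5-fold limit (*Six3* and *Six6* added in both) and 5 with mean UMIs per cell (also *Meis1*), and in every alternative run the genes lower included *Pax6* and *Lhx2*. For neurogenic-like cells the count of 1 became 0 without the upper limit on genes, 0 with no filter on cells, 0 at a 3-fold limit and 2 at a 1.5-fold limit. Doublet removal took 2 GFP+ and 0 GFP- kept cells, so the RGC-like, AC/HC-like and neurogenic-like comparisons used the same cells with it and it tested nothing there. The counts for RGC-like and AC/HC-like cells stayed within 1.5 times in each alternative run. Mean UMIs per cell moved the median log2 ratio of all genes in cone-like against progenitor-like cells to -0.76. Of 328 log2 ratios of single genes recomputed, 321 kept their sign, and the 7 that changed sign were under 2-fold in the main values. With no minimum of UMIs the share of all genes at least 2-fold lower was 14.1% for GFP+ against GFP- and 18.3% for cone-like against progenitor-like cells. Counting mixed cells with cone genes as cones, using the 17 progenitor-like cells of the GFP+ library, and splitting neurogenic-like cells by precursor genes were chosen after seeing the data. No paired analysis was possible because each gate had 1 library. Depth limits *Vsx1*, whose 13 UMIs in all allow no pattern to be read, and the groups of 65, 43, 23 and 17 cells.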
